A study of Mus musculus with 6 samples.

Results

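The 10 adipocyte genes described here, in mouse lung, are Adipoq, Cfd, Lep and Retn (secreted adipokines), Plin1, Cidec and Cidea (lipid droplet proteins), Fabp4 and Pck1 (lipid handling) and Ucp1 (heat production). They were picked by gene name, with Plin taken as the older symbol of Plin1, and with earlier results of these data known. They were read from 13 probes of an Agilent whole-genome array on which 27660 genes had a usable probe. The brightest probe, by mean signal over the 6 arrays, stands for each gene. Total RNA came from naïve lungs of male mice aged 8 weeks, 3 wild-type (lungs 11, 12 and 13) and 3 Nogo-A/B knockout (lungs 1, 11 and 12), each described as an individual biological replicate in a series on the role of Nogo in asthma. Nogo is the product of Rtn4; the sources used here do not give the allele, the strain background or how the lungs were dissected. Each lung was hybridised to 1 array with Cy3 alone, and the file headers place the scans on 2 days. Wild-type lung 13 and knockout lungs 1 and 11 were scanned on day 1, and wild-type lungs 11 and 12 and knockout lung 12 on day 2.

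White adipocytes store fat in 1 large droplet and secrete hormones, whereas brown adipocytes hold many small droplets and burn fat for heat. Adiponectin (Adipoq), adipsin (Cfd), leptin (Lep) and resistin (Retn) are released by white fat into the blood, and perilipin 1 (Plin1) coats the droplet and gates lipolysis. The lung parenchyma itself holds few adipocytes, but fat lies around the hilum, the large airways and the mediastinum, and lipid-bearing fibroblasts, macrophages and capillary endothelium of the lung use some of the same genes. RNA from lung tissue reports all of these at once, and fewer cells of a type and less RNA per cell cannot be told apart in such bulk samples.

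The values are probe signals, and the probes themselves show what was read. The Adipoq probe (mm7 chr16:22816125-22816184) and the Ucp1 probe (mm7 chr8:81866808-81866867) are shown as a gene read well above background in every lung and one that was not in any. The 2 Retn probes are shown because they share 22 bases, in capitals, so they are not independent readings of resistin. All are printed 5′ to 3′ as the array design lists them.
Adipoq probe: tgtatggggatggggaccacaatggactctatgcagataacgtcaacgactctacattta
Ucp1 probe: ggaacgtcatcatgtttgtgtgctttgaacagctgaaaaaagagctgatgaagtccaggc
Retn probe, brighter: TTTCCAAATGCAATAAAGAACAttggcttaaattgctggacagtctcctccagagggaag
Retn probe, dimmer: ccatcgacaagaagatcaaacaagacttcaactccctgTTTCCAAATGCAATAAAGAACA

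Levels below are log2 signals relative to the 75th percentile of the same array, so a level of 0 equals that percentile and 1 unit is a doubling. They are compared between lungs for 1 probe at a time, and not between probes. For some lists the signals of different probes are summed within a lung. Such a sum follows its brightest probes, so it is compared between lungs and not between lists. Of the 10 adipocyte genes, 8 met the requirement that 3 or more arrays read the probe well above background, and all 8 did so on all 6 arrays. Lep and Ucp1 did not meet it, and they enter no test. Among 189 probes printed in replicate spots, the median SD between spots of an array was 0.05, which covers spotting and scanning and not the spread between lungs. The 75th percentile of signal ran from 1087 in knockout lung 12 to 2344 in wild-type lung 13, and each array read 68.9% to 78.0% of its probes well above background. The brightest Rtn4 probe read 1.69, 1.62 and 2.36 in wild-type lungs 11, 12 and 13 and 1.099, -0.71 and -1.79 in knockout lungs 1, 11 and 12, so the 3 knockout lungs lay below the 3 wild-type lungs. The sources used here do not say whether that probe lies inside the deleted part.

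Adiponectin, an abundant hormone of fat that acts on liver and muscle, differed widely between lungs of both genotypes. Its level was 0.17, -2.32 and 0.95 in wild-type lungs 11, 12 and 13, and -3.12, -2.02 and -4.21 in knockout lungs 1, 11 and 12. Wild-type lungs 13 and 11 stood high, knockout lung 12 stood lowest, and wild-type lung 12 lay below knockout lung 11, so the groups overlapped. The highest lung exceeded the lowest 35.8-fold, and only 132 of the 20237 genes tested (0.652%) had a wider range. The knockout minus wild-type difference was -2.72 (SE 0.96, 95% confidence interval -5.04 to -0.39, n = 3 and 3), a 6.57-fold lower mean. By limma the p was 0.0286 unadjusted and 0.9999 adjusted (Benjamini-Hochberg over all genes tested).

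Adipsin, a serine protease that starts the alternative complement pathway as factor D, followed the same course. Cfd (mm7 chr10:79672573-79672632) read 3.59, 1.23 and 4.07 in wild-type lungs 11, 12 and 13 and -0.19, 1.83 and -1.05 in knockout lungs 1, 11 and 12. The highest lung exceeded the lowest 34.7-fold, wild-type lung 12 again lay below knockout lung 11, and the difference was -2.76 (SE 0.998, interval -5.19 to -0.34, 6.80-fold lower). By limma the p was 0.0316 unadjusted and 0.9999 adjusted.

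Resistin, an adipokine of white fat in mice, had a smaller range with the same 2 lungs at the top. Its brighter probe read -2.39, -4.41 and -1.32 in wild-type lungs 11, 12 and 13 and -5.15, -4.00 and -5.07 in knockout lungs 1, 11 and 12, a 14.2-fold span. The difference was -2.03 (SE 0.80, interval -3.98 to -0.08, 4.09-fold lower), with a limma p of 0.0433 unadjusted and 0.9999 adjusted. The overlapping dimmer probe read -2.71, -4.91 and -1.36 against -4.18, -3.99 and -6.99, and was not well above background in knockout lung 12. Its difference was -2.06 (SE 1.15), close in size but with a wider error. The 2 Retn probes disagreed on knockout lungs 1 and 12, which were about level by the brighter probe and far apart by the dimmer one.

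Leptin, the satiety hormone of white fat, was read by 10 spots and was well above background in 1 lung. All 10 spots passed in wild-type lung 13, at a level of -4.14 with an SD between spots of 0.15. In wild-type lungs 11 and 12 it read -7.99 and -8.50, and in knockout lungs 1, 11 and 12 it read -8.85, -8.60 and -8.44, with 0 of 10 spots well above background in each. The lung with measurable leptin was thus the lung with the highest Adipoq, Cfd, Retn and Plin1, and no fold between the groups is given because its lower bound is under 1.

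Among the droplet proteins, perilipin 1 put the lungs in the order that Adipoq gave, and the 2 CIDE proteins did not. Plin1 (mm7 chr7:75590467-75590526) read -1.19, -3.90 and -0.42 in wild-type lungs 11, 12 and 13 and -4.16, -3.11 and -4.75 in knockout lungs 1, 11 and 12. The groups overlapped through wild-type lung 12, the span was 20.1-fold, and the difference was -2.17 (SE 0.95, interval -4.47 to 0.13), with a limma p of 0.0604 unadjusted and 0.9999 adjusted.

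Cidec, known in mice as Fsp27, drives the fusion of droplets into 1 large one. It read 3.14, 2.56 and 2.77 in wild-type lungs 11, 12 and 13 and 1.57, 2.01 and 2.67 in knockout lungs 1, 11 and 12, a span of 2.96-fold. Here wild-type lung 11 was highest and knockout lung 1 lowest, and knockout lung 12, the lowest lung for Adipoq, Cfd, Pck1 and Plin1, lay within the wild-type range. The difference was -0.74 (SE 0.32, interval -1.53 to 0.05), with a limma p of 0.061 unadjusted and 0.9999 adjusted.

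Cidea, its relative in brown fat, read -1.09, -2.49 and -0.85 in wild-type lungs and -1.75, -1.54 and -1.58 in knockout lungs, in the same order of lungs. The 3 knockout lungs had an SD of 0.11 and lay inside the wild-type range (SD 0.88), whose lowest member was wild-type lung 12. The difference was -0.15 (SE 0.44, interval -1.22 to 0.92), with a limma p of 0.743 unadjusted and 0.9999 adjusted.

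Of the lipid-handling genes, Pck1 had the widest range of all 10 and Fabp4 one of the narrower ones, by the brightest probe of each gene. Pck1, the cytosolic enzyme of glyceroneogenesis in fat and of gluconeogenesis in liver and kidney, read 0.13, -2.62 and 0.42 in wild-type lungs 11, 12 and 13 (mm7 chr2:172903552-172903615). It read -4.06, -2.42 and -4.89 in knockout lungs 1, 11 and 12, a span of 39.7-fold. The difference was -3.10 (SE 0.99, interval -5.50 to -0.70, 8.57-fold lower), with a limma p of 0.0193 unadjusted and 0.9999 adjusted. The groups overlapped because wild-type lung 12 lay just below knockout lung 11.

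Fabp4, a fatty acid carrier of adipocytes that lung capillary endothelium and macrophages also make, read 2.48, 0.83 and 3.27 in wild-type lungs 11, 12 and 13. It read 1.87, 1.60 and 1.04 in knockout lungs 1, 11 and 12, all inside the wild-type range, with a difference of -0.69 (SE 0.63, interval -2.21 to 0.84). Its 2 other probes gave -0.74 (SE 0.61) and -0.54 (SE 0.80). By its brightest probe Fabp4 spanned 5.41-fold between lungs, and its dimmest probe ran wider, from -5.33 in wild-type lung 12 to -2.07 in wild-type lung 13. For 11 capillary endothelial genes, all measured, the summed signal in units of the 75th percentile was 265 to 312 in wild-type and 285 to 346 in knockout lungs.

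Ucp1, the uncoupling protein that defines brown fat, was not well above background on any of the 6 arrays. It read -6.35, -7.07 and -6.63 in wild-type lungs and -7.07, -6.68 and -6.78 in knockout lungs, around the lowest signals that passed on those arrays (-6.94 to -6.20). These arrays therefore set no level for Ucp1.

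**Figure D1:**
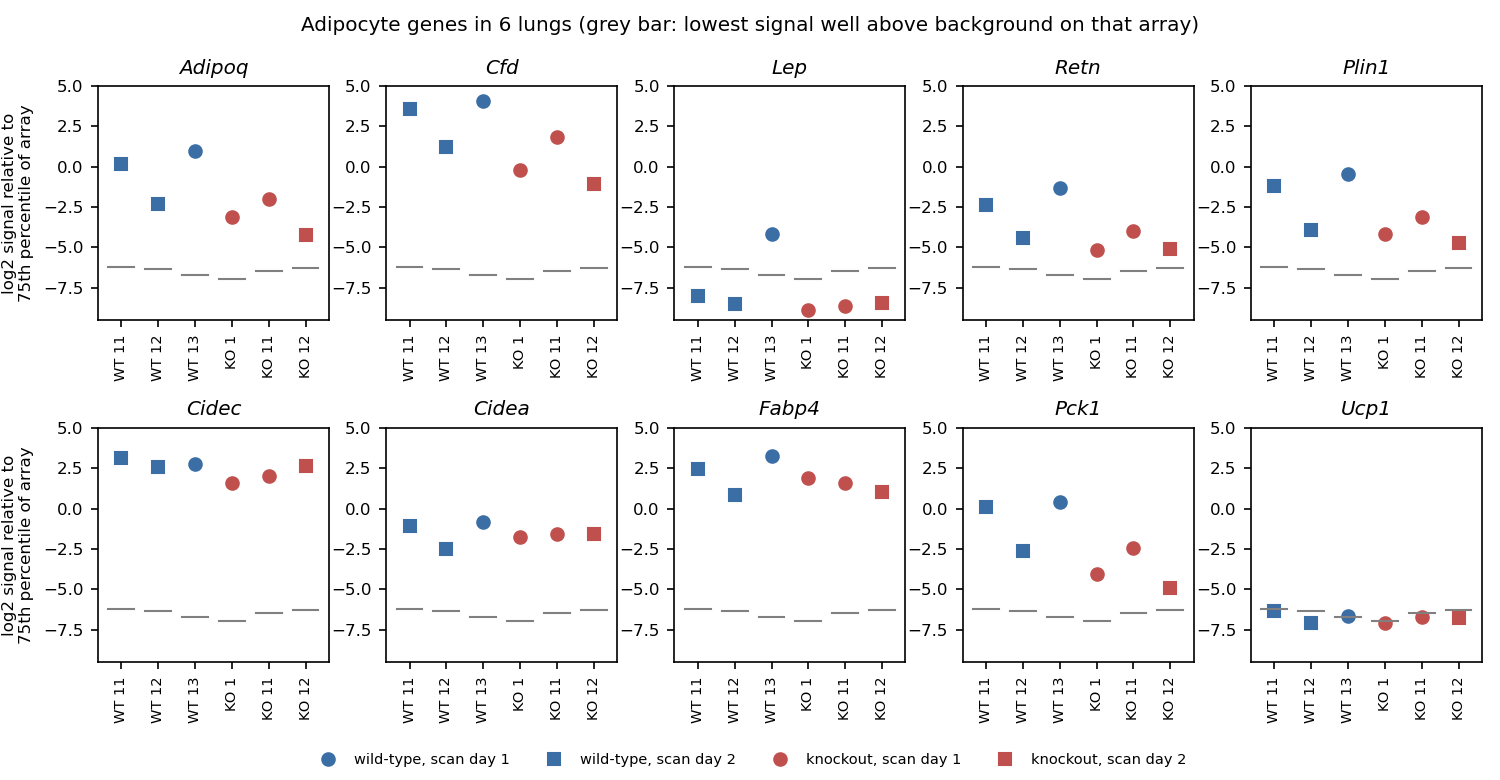
Level of each of the 10 adipocyte genes (y axis, log2 signal relative to the 75th percentile of the array) in each lung (x axis; WT wild-type, KO knockout), with the scan day given by the symbol and the lowest signal well above background on each array as a grey bar. Adipoq, Cfd, Retn, Plin1 and Pck1 are high in wild-type lungs 11 and 13, Lep clears the bar in wild-type lung 13 alone, and Ucp1 stays near the bar throughout.

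The comparison of genotypes addressed whether loss of Nogo-A and Nogo-B altered transcripts of the resting lung. After adjustment 0 of 20237 genes passed (0.0% by limma), and 0 of the 8 measured adipocyte genes. Before adjustment 193 genes (0.954%) had p under 0.05, 132 of them lower in knockout (0.652%), against 4 of the 8 adipocyte genes, Adipoq, Cfd, Retn and Pck1, all lower. A difference below 0 was seen in 8 of the 8, beside 47.7% of all genes, and a difference of at least 4-fold lower in 5 of the 8, beside 0.227% of all genes. The median difference was -2.10 over the 8 and 0.01 over all genes. In 0 of the 8 did the groups separate, whereas 1.58% of all genes separated with knockout lower and 4.0% in either direction. The genes were chosen with earlier results of these data known, so these counts and shares are a description and lend no support. Nor are the genes independent, because Adipoq, Cfd, Pck1 and Plin1 put the lungs in 1 order.

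These counts changed when single lungs were left out. Without wild-type lung 12, 7 of the 8 genes had an unadjusted limma p under 0.05, beside 0.549% of all genes. The count was 0 of 8 without wild-type lung 11 (0.455% of all genes), without wild-type lung 13 (7.28%) and without knockout lung 1 (0.934%). It was 4 without knockout lung 11 (1.45%) and 1 without knockout lung 12 (4.28%). The groups separated in 8 of 8 genes without wild-type lung 12, beside 6.35% of all genes in the same 5 lungs. They separated in 5 without knockout lung 11, beside 10.5% of all genes, and in 1 without knockout lung 12, beside 21.8%. In 0 of 8 did they separate without wild-type lung 11 (6.6% of all genes), without wild-type lung 13 (28.9%) or without knockout lung 1 (9.86%). Wild-type lungs 13 and 11 were the 2 highest lungs in 8 of the 8 genes, an arrangement noticed after the values were seen and present in 1.72% of all genes. This arrangement fixes the separation without wild-type lung 12, so the 2 counts are 1 observation.

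The difference was below 0 in 8 of the 8 genes on day 1 (54.6% of all genes) and in 7 of the 8 on day 2 (39.8%). On day 1, with 1 wild-type and 2 knockout lungs, the differences were -3.52 for Adipoq, -3.24 for Cfd, -3.66 for Pck1, -3.22 for Plin1 and -3.25 for Retn. On day 2, with 2 wild-type and 1 knockout lung, they were -3.14, -3.46, -3.65, -2.21 and -1.67 for the same genes. Fabp4 gave -1.53 and -0.61, Cidec -0.98 and -0.18, and Cidea -0.80 and 0.21, so Cidea changed sign. With 3 lungs a day the groups separated in 8 of 8 genes on day 1, beside 66.6% of all genes, and in 5 of 8 on day 2, beside 81.8%, so these counts say little. A difference below 0 on both days occurred in 15% of all genes and in 7 of the 8.

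With scan day as a block the median over the 8 genes was -2.59, and 5 of 8 had an unadjusted limma p under 0.05 with knockout lower, beside 1.31% of all genes. Adipoq then gave -3.33 (SE 0.74), Cfd -3.35 (SE 0.85), Pck1 -3.65 (SE 0.87), Plin1 -2.71 (SE 0.82) and Retn -2.46 (SE 0.72), each with an adjusted limma p of 0.9993. The days themselves differed in 2217 genes by adjusted limma p (11%) and in 0 of the 8, although 7 of the 8 were lower on day 2 (45.9% of all genes), with a day difference of -1.83 for Adipoq. The interaction of genotype and day passed in 0 of all genes (0.0%) and in 0 of the 8. For Adipoq it was 0.38 with an SE of 1.70.

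**Figure D2:**
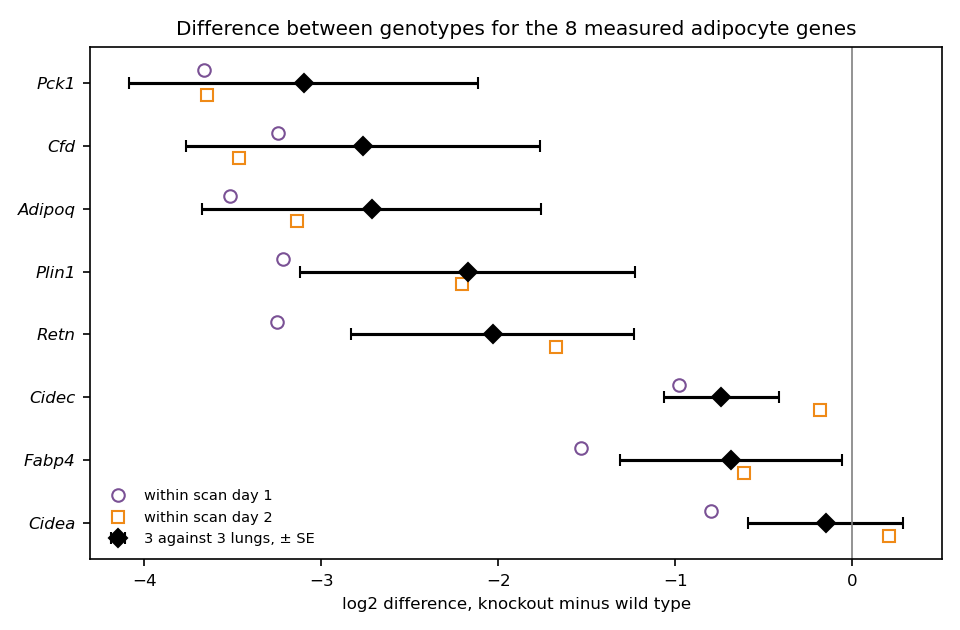
Knockout minus wild-type log2 difference (x axis) for the 8 measured adipocyte genes (y axis), with diamonds and bars for 3 against 3 lungs and its SE, and open symbols for the differences within each scan day. Pck1, Cfd, Adipoq, Plin1 and Retn lie between -3.10 and -2.03, whereas Cidec, Fabp4 and Cidea lie between -0.74 and -0.15.

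The 8 genes fell into 2 kinds by the range of their brightest probes. Adipoq, Cfd, Pck1, Plin1 and Retn spanned at least 3 log2 units, as 4.88% of all genes did, and Fabp4, Cidea and Cidec spanned 2.44, 1.63 and 1.56. The place of Fabp4 depends on the probe. Its dimmest probe, from -5.33 in wild-type lung 12 to -2.07 in wild-type lung 13, also spanned more than 3 units. Adipoq, Cfd, Pck1 and Plin1 put the 6 lungs in 1 order, namely wild-type 13, wild-type 11, knockout 11, wild-type 12, knockout 1 and knockout 12. By its brighter probe Retn differed from that order only in its 2 lowest lungs. By its dimmer probe wild-type lung 12 (-4.91) instead lay below knockout lung 1 (-4.18). As a description over 6 lungs that share arrays and scaling, Pearson's r with Adipoq was 0.993 for Pck1, 0.988 for Plin1, 0.986 for Cfd and 0.973 for Retn. It was 0.852 for Fabp4, 0.654 for Cidea and 0.520 for Cidec. The 2 lungs farthest from the median of Adipoq were wild-type lungs 13 and 11, its 2 highest. Without them, with wild-type lung 12 and the knockout lungs left, r was 0.981, 0.931, 0.978 and 0.851 for the first 4. For Fabp4, Cidea and Cidec it was 0.145, -0.37 and -0.29. The relation of the latter 3 to Adipoq thus rested on those 2 lungs.

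**Figure D3:**
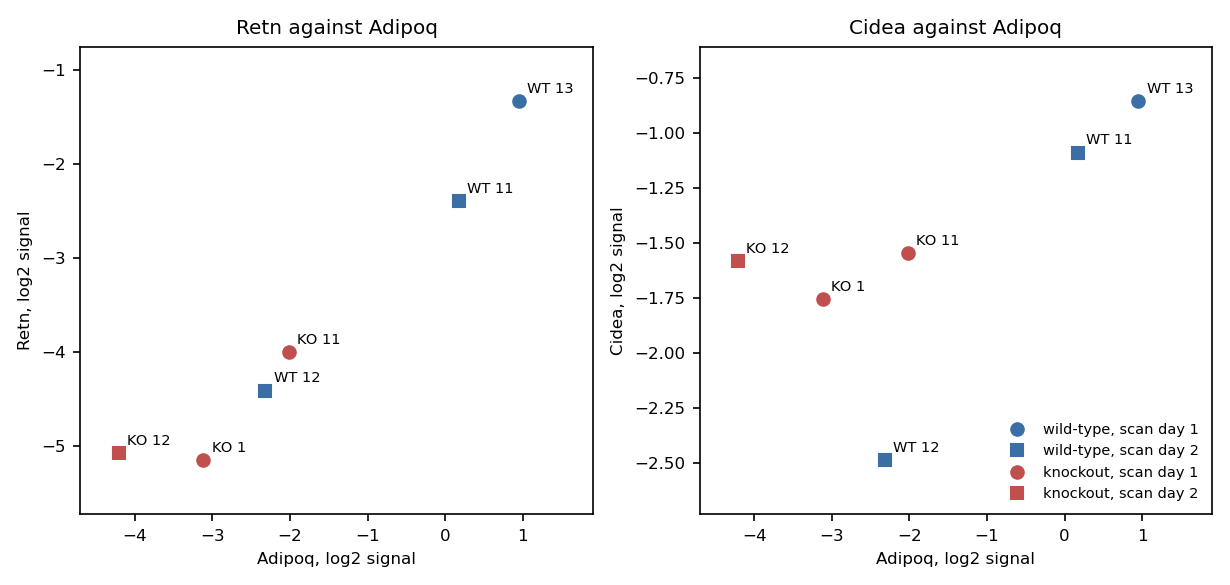
Levels of Retn (left) and Cidea (right) against the level of Adipoq in the same lung (both axes log2 signal relative to the 75th percentile of the array, 1 point a lung). Retn goes up with Adipoq apart from knockout lungs 1 and 12, which lie level at -5.15 and -5.07, whereas for Cidea wild-type lung 12 lies lowest at -2.49 and the 3 knockout lungs lie together between -1.75 and -1.54.

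Of 5553 other genes with a range of at least 1 and signals well above background on all 6 arrays, 5 had an r with Adipoq of at least 0.9. The first was NAP025923-1, a predicted transcript with r = 0.986, whose levels were 1.75, -0.55 and 2.57 in wild-type lungs 11, 12 and 13 and -1.91, 0.17 and -2.30 in knockout lungs 1, 11 and 12. Its probe lies 176 bases from the Cfd probe, at mm7 chr10:79672171-79672396, and its r with Cfd was 0.995. Whether both probes read 1 transcript was not tested. Its sequence is shown because its position beside Cfd bears on that.
NAP025923-1 probe: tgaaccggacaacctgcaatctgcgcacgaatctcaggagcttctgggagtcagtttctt
Itga2b, the platelet integrin, came next with r = 0.953 but spanned only 2.14-fold, and Zbtb39 reached 0.919. Tmem45b (r = 0.905) had a range like that of the adipokines, with -2.29, -4.80 and -1.57 in wild-type lungs 11, 12 and 13 and -6.39, -5.71 and -5.41 in knockout lungs 1, 11 and 12. Its groups did not overlap, with knockout lower, as in 1.58% of all genes. The difference of Tmem45b was -2.95 (SE 0.83, with an adjusted limma p of 0.9999). Mrap, the melanocortin receptor accessory protein of adipocytes and adrenal, had r = 0.877, the last of the 10 most alike. It read -3.12, -4.59 and -2.40 against -4.63, -4.01 and -4.16, again high in wild-type lungs 13 and 11. Of the others, F5 (r = 0.898), Oit1 (0.90) and Fxyd2 (0.899) had ranges of 1.46, 1.85 and 1.30. As for Tmem45b, the groups did not overlap for Itga2b, F5, Oit1 and a probe without a gene name among the 10, with knockout lower. Without the 2 lungs farthest from the median of Adipoq, r was 0.149 for Tmem45b, -0.024 for Mrap and -0.076 for Oit1, so their likeness rested on those 2 lungs. It was 0.938 for NAP025923-1, 0.807 for Itga2b, 0.852 for Zbtb39, 0.930 for F5 and 0.984 for Fxyd2.

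Brown and white fat genes were then set against each other, with each gene centred on its mean over the 6 lungs. The mean of Ucp1 and Cidea minus the mean of Lep and Retn was -0.11, 0.09 and -2.59 in wild-type lungs 11, 12 and 13 and 1.01, 0.61 and 0.999 in knockout lungs 1, 11 and 12. The knockout lungs lay above the wild-type lungs, at 0.87 ± 0.23 against -0.87 ± 1.497 (SD, n = 3 each). The gap of 1.74 is not a measured size, because Ucp1 was not well above background in any lung and Lep only in wild-type lung 13. It was 0.868 with normexp background correction, 0.911 in the authors' values and 0.879 without wild-type lung 13. For that reason Cidea minus Retn alone was also computed, a choice made after the values were seen. It was -0.87, -0.25 and -1.70 in wild-type and 1.22, 0.28 and 1.32 in knockout lungs, a gap of 1.88, made up of a Cidea difference of -0.15 and a Retn difference of -2.03. Within day 1 the 4-gene gap was 3.40 and within day 2 it was 1.01. No test was made of these scores.

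Wider lists of fat genes were read for the arrangement that Adipoq showed, with wild-type lungs 13 and 11 as the 2 highest. It was seen in 2 of 26 further adipocyte genes (Mrap and Thrsp), 0 of 18 brown fat programme genes and 0 of 6 white-enriched genes. It was present in 1.72% of all genes, so the counts of 0 say little. Of 30 further adipocyte genes 26 were measured, and 20 were lower and 6 higher in knockout, beside 47.7% of all genes lower. The median difference over the 26 was -0.18 (-0.08 with scan day as a block). An unadjusted limma p under 0.05 was seen in 2, beside 0.954% of all genes, and 0 passed adjustment. The 2 were Dgat2, which makes triglyceride (-0.70, SE 0.25, with 3.40, 2.82 and 2.74 against 2.01, 2.47 and 2.39), and Orm1, an acute-phase protein of fat and liver (-1.20, SE 0.44). In both the groups did not overlap, with knockout lower, as in 1.58% of all genes. Plin4, another droplet protein, read 0.64, -0.68 and 2.31 against 1.20, 1.01 and -0.85, with knockout lung 1 above wild-type lung 11. Acvr1c, Adig, Aqp7 and Adrb3 were not well above background on enough arrays.

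Of 24 genes of the brown fat programme 18 were measured, with 8 lower and 10 higher, 0 with an unadjusted limma p under 0.05 and a median of 0.08 (-0.06 with scan day as a block). The defining genes Elovl3, Ebf2, Zic1, Lhx8, Otop1 and Bmp8b were not measured. Cox7a1, Cox8b, Cpt1b and Fabp3, which brown fat shares with muscle, were highest in knockout lung 1. Cox8b read -1.23, -1.54 and 0.62 in wild-type lungs 11, 12 and 13 and 2.49, 0.11 and -1.80 in knockout lungs 1, 11 and 12. Skeletal muscle genes were highest in the same lung: their 12 members summed to 767 times the 75th percentile in knockout lung 1 and to 1.45 to 14.3 in the other lungs. Car3 and Slc2a4, which fat and muscle share, also peaked there, at 5.18 and 1.84. The part of muscle RNA in these values was not tested.

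The white-enriched list (Nnat, Mest, Sfrp5, Slc7a10, Npr3 and Sncg measured, 6 of 9) had a median difference of -0.03 (-0.27 with scan day as a block), with 3 lower and 3 higher. The 14 regulators of fat cell formation were all measured, 6 lower and 8 higher, with a median of 0.03. Pparg, their master regulator, which alveolar macrophages use too, differed by -0.14 (SE 0.29). Zfp423 differed by 0.26 (SE 0.17) with groups that did not overlap, as in 4.0% of all genes in either direction. In 0 of the 14 were wild-type lungs 13 and 11 the 2 highest, beside 1.72% of all genes, so this count says little. Ebf1, an early regulator, was highest in wild-type lung 13 and knockout lung 1, at -2.48 and -2.52.

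The receptors and partners of the adipokines differed by less than the adipokines did. Of 6, all measured, 5 were lower in knockout, beside 47.7% of all genes, with a median of -0.14. Wild-type lungs 13 and 11 were the 2 highest lungs in 1 of the 6, beside 1.72% of all genes. Cap1, proposed as a resistin receptor, differed by -0.42 (SE 0.16, with an adjusted limma p of 0.9999), and Lepr, the leptin receptor, by -0.27 (SE 0.15). In both the groups did not overlap, with knockout lower, as in 1.58% of all genes. Adipor1 and Adipor2, the adiponectin receptors, gave -0.13 and 0.02, and Cdh13, which binds adiponectin on endothelium, gave -0.15. Of 7 measured complement genes around adipsin the median was -0.20, and turned to 0.17 once scan day was a block (0.34 within day 2). C3, the substrate of the convertase that adipsin activates, differed by -0.20 (SE 0.49).

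**Figure D4:**
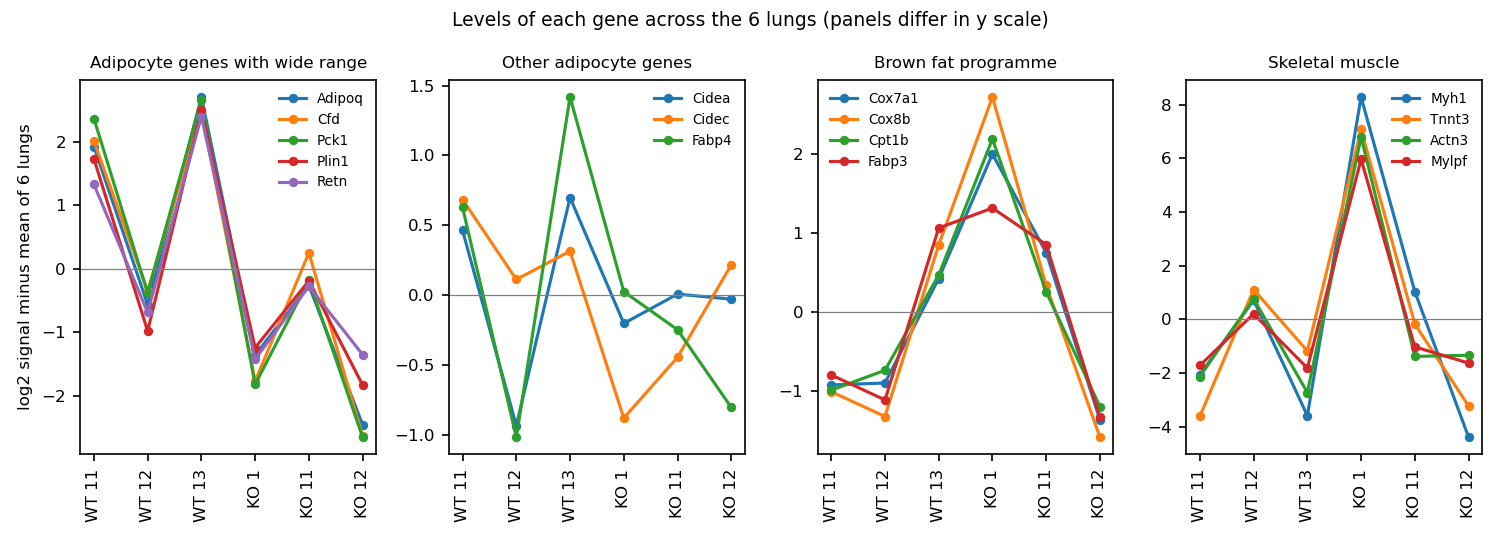
Level in each lung (x axis; WT wild-type, KO knockout) minus the mean over the 6 lungs (y axis, log2) for 5 adipocyte genes with a wide range, the 3 others, 4 brown fat programme genes and 4 skeletal muscle genes. The first panel peaks in wild-type lungs 11 and 13, the brown fat programme and skeletal muscle panels peak in knockout lung 1, and the y scales differ between panels.

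Tissues that can lie beside the lung were read in the same arrays. Cardiac muscle genes summed to 14.1 to 106 in wild-type and 5.74 to 115 in knockout lungs and were high in the 3 lungs of day 1, with 8 of 10 differing between days by adjusted limma p and a median day difference of -2.95. Mesothelial genes went the other way, with a median day difference of 1.31 and 7 of 8 passing. Liver and kidney genes, whose tissues also make Pck1, summed to 0.71 to 1.95 in wild-type and 0.47 to 1.66 in knockout lungs. Apoa1, Ttr, Umod, Slc34a1 and Kap were not measured. Alveolar macrophage genes summed to 77.5 to 148 and 101 to 173, and lymphoid genes to 4.91 to 6.12 and 5.43 to 8.65. The median knockout minus wild-type differences were 2.39 for skeletal muscle, -0.17 for cardiac muscle, -0.48 for mesothelium and -0.83 for liver and kidney genes. With scan day as a block they were 1.67, -1.27, 0.12 and -0.43, so the mesothelial sign turned. Skeletal muscle genes were higher in knockout within day 1 (4.87) and lower within day 2 (-1.87). The cardiac median was below 0 within both days (-1.09 and -1.42), as were the differences of 7 of the 8 adipocyte genes. The unblocked medians were 0.09 for endothelial, 0.04 for macrophage, -0.12 for thymus, -0.20 for cartilage, -0.12 for red cell and 0.50 for lymphoid genes, and with the block 0.04, 0.19, -0.02, 0.00, 0.03 and 0.21. None of the lists of muscle, mesothelium, liver and kidney, thymus, cartilage, red cells or lymphoid tissue had a measured gene with wild-type lungs 13 and 11 as its 2 highest. That arrangement was present in only 1.72% of all genes, so a count of 0 in lists this short says little. The part of other tissue in the adipocyte genes was not tested.

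The promoters of the 10 genes were searched for 5 short motifs, which are not particular to fat cell regulators. RefSeq promoters (GRCm38.p6, 250 bases before the start) were matched for 8 of the 10 genes. A gene was counted where any of its promoters held the motif, whereas the percentages are of promoters. Cidec had more than 1 promoter, and not each of them held the motif found. On both strands, CCAAT was found in 1 of them (Adipoq) and in 33.8% of all 32851 promoters, and TTGCNNAA, the C/EBP form, in 3 (Cidec, Lep and Plin1) and in 9.56%. AGGTCA, a nuclear receptor half-site, was in 1 (Ucp1) and in 14.0%, the DR1 repeat of it in 0 and in 0.033%, and TATAAA in 0 and in 12.4%. Those of 3 genes are shown, with the matches in capitals: Adipoq at chr16:23146286-23146535 on the plus strand, Plin1 at chr7:79732777-79733026 on the minus strand and Lep at chr6:29059971-29060220 on the plus strand.
Adipoq promoter: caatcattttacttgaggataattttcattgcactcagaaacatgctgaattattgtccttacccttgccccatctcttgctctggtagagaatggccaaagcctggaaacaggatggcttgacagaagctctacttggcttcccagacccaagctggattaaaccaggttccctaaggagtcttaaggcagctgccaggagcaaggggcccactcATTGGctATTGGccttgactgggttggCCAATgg
Plin1 promoter: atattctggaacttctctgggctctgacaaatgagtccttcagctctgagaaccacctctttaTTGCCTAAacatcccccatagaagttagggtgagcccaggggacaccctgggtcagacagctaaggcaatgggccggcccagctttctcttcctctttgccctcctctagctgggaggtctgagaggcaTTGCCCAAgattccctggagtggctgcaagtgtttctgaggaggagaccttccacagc
Lep promoter: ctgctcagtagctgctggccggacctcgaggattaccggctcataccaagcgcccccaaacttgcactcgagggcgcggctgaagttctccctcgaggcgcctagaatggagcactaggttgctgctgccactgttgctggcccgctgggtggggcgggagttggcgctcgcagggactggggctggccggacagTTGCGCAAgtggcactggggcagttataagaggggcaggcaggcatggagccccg
Adipoq carried 3 copies of CCAAT, Plin1 2 of TTGCNNAA and Lep 1, which reads the same on both strands. Cfd, Pck1 and Retn, whose levels ran with Adipoq, held none of the 5 motifs in this window.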

How the data were processed

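RNA of 6 lungs was amplified with Cy3 nucleotides and read on 1-colour Agilent arrays of 60-base probes, per the labels' protocols. The deposited scanner files hold an intensity per spot, and their processed signal is background-subtracted by Agilent Feature Extraction, version 9.5.1.1 per the file headers and 9.1 per the submitters' processing notes. Probe positions are those of mm7 in the file headers. The authors' value table holds log2 values with medians of 8.09 on every array; its scaling and centring are not given in the sources used here, and it served as an alternative.

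Outlier spots were dropped, the log2 of the processed signal was averaged over the spots of a probe, and the 75th percentile of each array was subtracted. Of 41174 probes 32719 were named through RefSeq by accession or symbol and 8455 kept the file's name. The 20237 genes whose brightest probe passed as well above background on 3 or more arrays were tested with limma 3.58.1 (R 4.3.3), 3 wild-type against 3 knockout, two-sided, with Benjamini-Hochberg adjustment at 0.05. The code was tested on simulated data. Array number limits the precision. The lung numbers shared by the genotypes (11 and 12) are not described as pairs. The p-values set a difference against the spread between these lungs, which limma moderates with the spread of all genes.

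Genes named besides the 10 were, from each list, up to 6 with the widest range and up to 4 with the smallest unadjusted p, the 10 with the highest correlation to Adipoq, and Rtn4. The 10 genes and all lists were chosen with earlier results of these data known. Alternatives changed the background correction, scaling, filter, probe, variance model, block and lungs used.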

Additional observations from a re-analysis of the deposited data

How the results depend on the processing

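Over all alternatives tried, 246 of 251 single-gene values kept their direction. This tally includes the changes of filter and of variance model, which leave each single-gene difference as it was. Their agreement was fixed in advance and says nothing of robustness. The 5 that turned were all of Cidea: its genotype difference was 0.21 on day 2 alone, 0.23 with the replicate block, 0.043 without wild-type lung 11 and 0.16 without wild-type lung 13 (-0.66 to 0.16 leaving out a lung), and its day difference was 0.069 without wild-type lung 13 (-0.93 to 0.069 leaving out a lung). Genes passing adjustment between genotypes numbered 0 in the main setting, 1 with normexp, 2 with median scaling, 1 in the authors' values, 2 with slide as a random block, 1 with a trended and robust variance and 0 to 1 leaving out a lung. Adipocyte genes with an unadjusted limma p under 0.05 numbered 4 of 8 in the main setting (0.954% of all genes). They numbered 6 with quantile normalization (1.04%), with normexp (1.01%) and in the authors' values (1.01%). The other settings with all 6 lungs gave 4 or 5 (0.652% to 3.58%), and leaving out a lung gave 0 to 7 (0.455% to 7.28%). Adipocyte genes with separate groups numbered 0, 1 in the authors' values (4.14% of all genes), 8 on day 1 (66.6%), 5 on day 2 (81.8%) and 0 to 8 leaving out a lung (6.35% to 28.9%). Their median difference was -3.23 on day 1 and -3.04 to -1.40 leaving out a lung. The brown minus white gap was 0.868 with normexp, 0.911 in the authors' values, 3.40 on day 1 and 0.88 to 2.22 leaving out a lung. Genes differing between scan days numbered 2217, 3658 with median scaling and 624 to 2463 leaving out a lung. Lung numbers 11 and 12 are shared by both genotypes. Over all genes tested, deviations from the group means correlated at -0.25 between the lungs numbered 11 and at 0.42 between those numbered 12. Only the lungs numbered 12 shared a scan day. Pairs of a wild-type and a knockout lung ran from 0.26 to 0.57 within a day and from -0.58 to -0.20 across days. With the replicate block over the 4 same-numbered lungs the median difference was -1.26. There 5 of 8 genes had an unadjusted limma p under 0.05 (3.1% of all genes) and 0 genes passed adjustment. Counts on 1 day or without a lung rest on fewer samples; the cause of the other shifts was not tested. Ucp1 in all lungs and Lep in all but wild-type lung 13 lie at background, where these arrays set no level.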
